A study of Mus musculus with 9 samples.

Results

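The genes described are 33 targets of hypoxia-inducible factor (HIF) that lie outside glycolysis. They were chosen by name, as genes that HIF is known to induce or that are listed with its targets. No cutoff on their values was used, but earlier results of these data were known when they were chosen. All 33 were found among the 19840 gene names of the study, Ero1l under its present name Ero1a. For the 5 of the 33 with several transcript records, the values are those of the record that was highest on average. In the 6 cultured libraries 27 of the 33 had a mean of at least 1 normalised RPKM and were tested. P4ha2, Adm, Nfil3, Rora, Fam13a and Tmem45a had a lower mean. RPKM scales a read count to the length of the transcript and the size of the library, and normalised means divided by 1 scaling factor per library.

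The study profiled erythroid progenitors of C57BL/6 mouse fetal liver, embryonic day 13.5 to 14.5, by paired-end mRNA sequencing. Early progenitors called BFU-E (for burst-forming unit-erythroid) were cultured in serum-free medium with stem cell factor, IGF-1 and erythropoietin, then given an agent or water for 4 h. Cells sorted as Kit-positive, lineage-negative and lowest in both CD71 and CD24a (the CD71/CD24a sort) received 100 nM dexamethasone (Dex) with 333 µM dimethyloxalylglycine (DMOG), DMOG alone, Dex alone or water. Cells sorted by low CD71 alone (the CD71 sort) received Dex or water. Every cultured library thus shares the same growth factors, and DMOG was used in the CD71/CD24a sort only. The 3 fresh libraries were BFU-E by low CD71, the later progenitors CFU-E (for colony-forming unit-erythroid) by high CD71, and Kit-negative Ter119+ erythroblasts. Each of the 9 conditions is 1 library, the cells of a sort were split over its treatments, and the number of embryos behind a sort is not stated. The p-values below therefore rest on how far these libraries depart from the sum of the fitted terms, not on the spread between separate animals. Those terms are sort, Dex and DMOG, so a Dex difference that is unlike between the sorts also raises the p-value for DMOG.

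HIF is a pair of an oxygen-regulated alpha subunit and the stable subunit ARNT. In the presence of oxygen, prolyl hydroxylases (encoded by the Egln genes) mark the alpha subunit for degradation through VHL. DMOG blocks enzymes of this class, so that the alpha subunit accumulates without a lack of oxygen. HIF binds the core RCGTG of hypoxia response elements. Beside glycolysis its targets serve collagen hydroxylation and protein folding in the endoplasmic reticulum, glycogen storage, mitochondrial turnover, secreted signals, and feedback on transcription. Dexamethasone is a synthetic glucocorticoid, a class of hormone that sustains the self-renewal of erythroid progenitors.

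The promoters of the members with the highest DMOG difference are shown first, because HIF acts through short sites in such DNA. They are 250 bases upstream of the RefSeq transcript start (build GRCm38.p6), read on the strand of the gene. Capitals mark each ACGTG or GCGTG on either strand, so that CACGT and CACGC are the matches of the other strand, and matches can overlap.
Ankrd37, chr8:45999851-46000100 (minus strand): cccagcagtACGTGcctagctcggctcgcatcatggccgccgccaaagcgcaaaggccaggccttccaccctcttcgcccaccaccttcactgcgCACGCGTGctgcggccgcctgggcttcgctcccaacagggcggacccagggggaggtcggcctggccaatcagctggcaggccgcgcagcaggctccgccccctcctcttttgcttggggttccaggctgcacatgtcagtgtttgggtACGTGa
Bnip3, chr7:138909507-138909756 (minus strand): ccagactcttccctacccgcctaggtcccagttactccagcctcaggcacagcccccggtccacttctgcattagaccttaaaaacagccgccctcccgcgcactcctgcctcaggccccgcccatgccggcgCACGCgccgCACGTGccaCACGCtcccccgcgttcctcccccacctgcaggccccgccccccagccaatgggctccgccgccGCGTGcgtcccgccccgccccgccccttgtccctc
Narf, chr11:121236986-121237235 (plus strand): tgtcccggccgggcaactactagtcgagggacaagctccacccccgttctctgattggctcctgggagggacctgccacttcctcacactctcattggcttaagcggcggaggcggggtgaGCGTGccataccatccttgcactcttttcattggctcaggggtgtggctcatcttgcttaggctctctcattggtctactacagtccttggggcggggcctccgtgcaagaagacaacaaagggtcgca
P4ha1, chr10:59323046-59323295 (plus strand): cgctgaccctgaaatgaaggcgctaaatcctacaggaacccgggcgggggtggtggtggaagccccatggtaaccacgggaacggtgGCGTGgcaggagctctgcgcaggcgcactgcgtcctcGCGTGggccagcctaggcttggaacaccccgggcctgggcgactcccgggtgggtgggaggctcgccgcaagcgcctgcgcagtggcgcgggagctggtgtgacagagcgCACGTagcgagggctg
Ak4, chr4:101419039-101419288 (plus strand): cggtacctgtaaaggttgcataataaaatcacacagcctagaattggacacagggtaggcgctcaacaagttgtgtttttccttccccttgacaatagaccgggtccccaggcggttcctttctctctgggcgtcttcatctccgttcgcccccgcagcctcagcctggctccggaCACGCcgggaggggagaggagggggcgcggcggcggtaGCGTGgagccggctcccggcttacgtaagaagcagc

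The Ankrd37 stretch holds 3 matches on the strand of the gene and 1 on the other, the nearest 4 bases from the start. The Bnip3 stretch holds 2 and 3, of which 1 place reads CACGTG and matches on both strands. Narf has 1 match, P4ha1 has 3 and Ak4 has 2. Bhlhe40, the fifth member by DMOG difference, is not in the promoter table, nor are Hmox1, Ndrg1, Ndufa4l2, Plod2 and Zfp395. Over the whole table window of 300 bases, which runs 50 bases past the start, 22 of the 27 members in the table (81.5%) held at least 1 match, against 11836 of all 27025 promoters (43.8%). For ACGTG alone, counted on both strands, the shares were 14 of 27 (51.9%) and 5315 of 27025 (19.7%). The 5 members without a match were Vegfa, Gys1, Gbe1, Nfil3 and Fam13a. Both motifs hold a CG, and the promoters were not matched to the members for CG content or expression. The part of these in the higher share of the members was not tested. A match describes the letters in this window and shows no binding.

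Depth, read from the step size of low RPKM values, was 52.75 M reads for Dex with DMOG and 40.1 M for DMOG, against 11.85 M to 19.05 M for the 4 cultured libraries without DMOG, and 17.4 M to 23.7 M for the fresh libraries. The DMOG libraries are thus also the deepest, and the part of depth in the DMOG result was not tested. The summed level of 9 neutrophil and mast cell markers was 5.33 and 5.52 with DMOG against 5.92 and 6.51 without it in the CD71/CD24a sort, and that of the 7 macrophage markers found, of 8 listed, was 0.822 and 0.783 against 0.889 and 1.15. The 5 megakaryocyte markers summed to 24.2 and 24.2 with DMOG against 23.6 and 24.4 without it, the 5 hepatocyte markers to 11.9 and 10.5 with DMOG against 9.12 and 10.2 without it, and the 4 endothelial markers to 5.12 and 5.64 with DMOG against 4.95 and 5.83 without it. The megakaryocyte marker Pf4 was higher in both pairs, at 2.29 and 3.39 with DMOG against 0.839 and 1.26 without it, and its part in the result was not tested. Ltf and Mcpt4 were at 0 in all 4 libraries of that sort. Summed erythroid markers were 518 and 711 with DMOG against 529 and 664 without it, in each pair with the Dex library first.

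The levels of the members covered a wide span. In the water library of the CD71/CD24a sort P4hb, the shared beta subunit of collagen prolyl hydroxylase and a disulfide isomerase, was the highest at 168 normalised RPKM. Mif, a cytokine gene, followed at 116 and Fam162a, a mitochondrial protein gene, at 52.5. At the other end Adm, which encodes the peptide hormone adrenomedullin, was at 0 in 7 of the 9 libraries, which allows up to 0.296 (3 reads, in Ter119+ cells), and did not pass 0.0353 in any. Rora, Fam13a and Tmem45a stayed below 0.2 throughout. Mif shares 56.6% of its sampled 32-base words with other genes or pseudogenes on the same strand, Bnip3 26.2% and Ak4 13.1%, so their own levels are uncertain. With transcripts on the opposite strand Mif shares 80.6%, Bnip3 71.5%, Higd1a 29.6%, Fam162a 19.8% and Pgm1 15.7%.

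**Figure D1:**
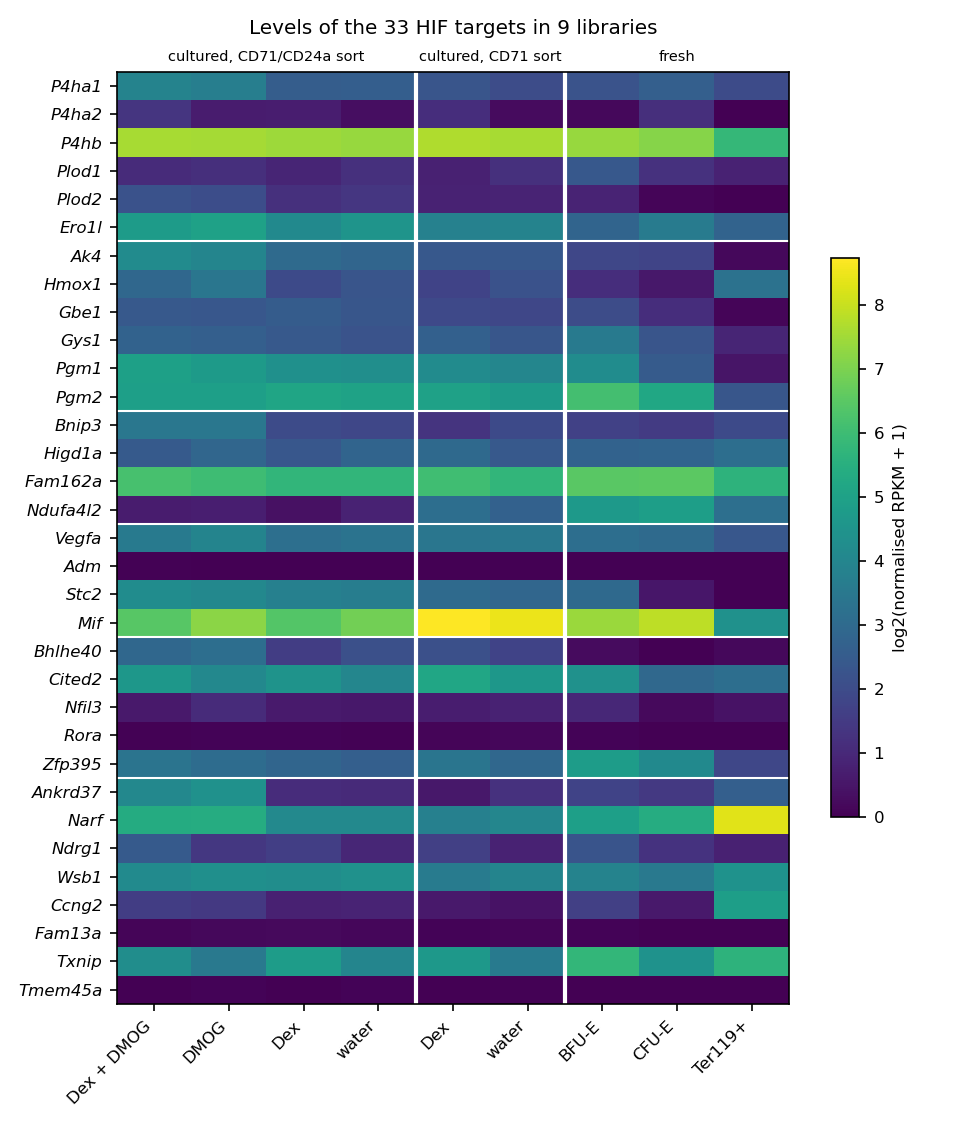
Level of each of the 33 members (rows, grouped by role) in each of the 9 libraries (columns), as log2(normalised RPKM + 1) on a colour scale. P4hb and Mif are high in nearly all columns, Ankrd37 is high in the 2 DMOG columns, Narf is highest in Ter119+ cells, and Adm, Rora, Fam13a and Tmem45a are near 0 in all.

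The first comparison asked which members answered to DMOG. Ankrd37 and Narf rose with DMOG, and they were the only genes of the 9535 tested to pass (limma, Benjamini-Hochberg adjusted p under 0.05), a background of 0.021%. Most of the other tested members had higher values with DMOG without passing. The difference was above 0 in 23 of 27 members, against 48.8% of all genes, with a median of 0.47 against -0.0028 on the log2 scale. It was above 0 in both pairs (Dex with DMOG over Dex, DMOG over water) in 21 of 27, against 27.9% of all genes. At an unadjusted p under 0.05 there were 17 members higher and 1 lower, against 2.22% and 1.42% of all genes. In 13 of 27 members both DMOG libraries lay above all 4 other cultured libraries, against 6.62% of all genes. In bulk RNA a change in the number of cells of a type and a change in RNA per cell cannot be told apart.

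The number of calls rests on few degrees of freedom. With DMOG compared within the CD71/CD24a sort alone, 16 of 26 members were higher (background 0.989%) and 1 was lower (background 0.473%), all by limma adjusted p. Leaving out the CD71 Dex or the CD71 water library gave the DMOG estimates of the CD71/CD24a sort alone again. The CD71 library that remains is then fitted exactly, so these fits add no separate check. Leaving out the CD71/CD24a Dex or water library left Ankrd37 alone. Without the Dex with DMOG library 6 members were higher and without the DMOG library 5. With a pseudocount of 0.1, with no filter on low values, or with the sort term (the replicate block) left out, 0 members passed.

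**Figure D2:**
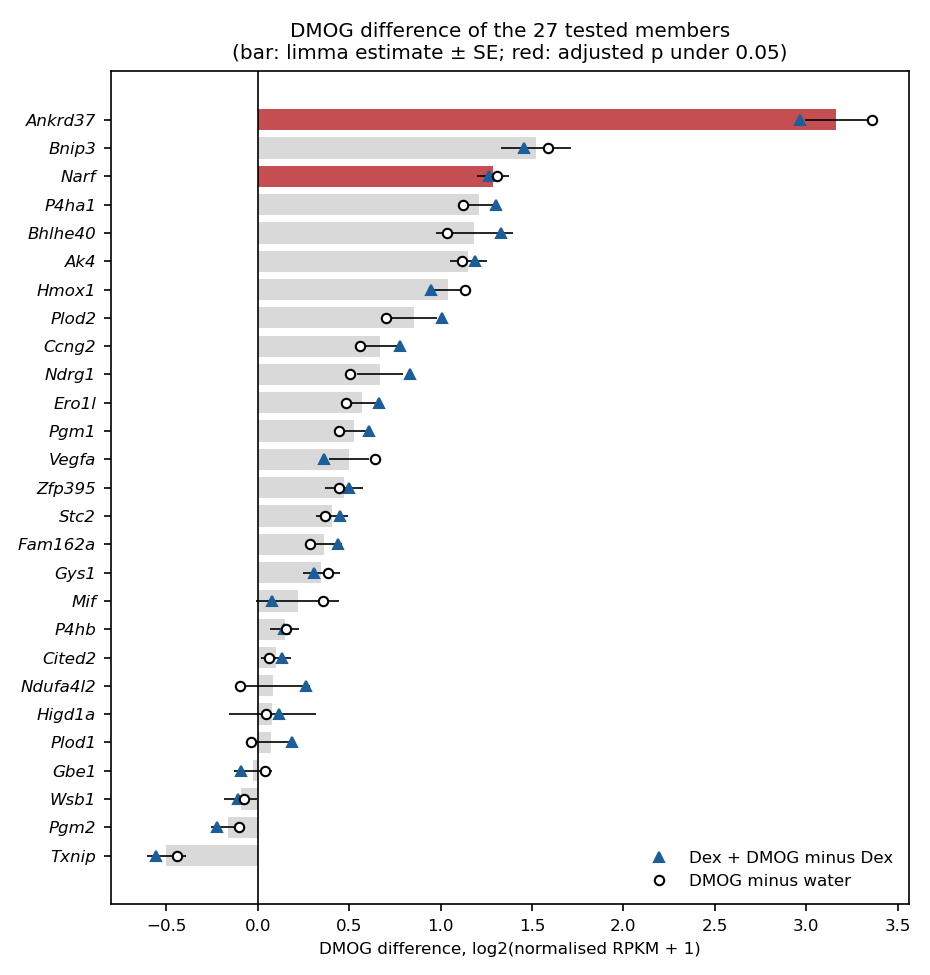
DMOG difference of the 27 tested members on the log2(normalised RPKM + 1) scale (bars, limma estimate with SE; red, adjusted p under 0.05), with the difference in each of the 2 pairs as symbols. Ankrd37 stands at 3.16, the next 6 members lie between 1.04 and 1.52, and Txnip is lowest at -0.50.

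Ankrd37, an ankyrin repeat gene, had the largest change of the list. It was at 15.8 with Dex and DMOG and 20.3 with DMOG, against 1.14 with Dex and 1.07 with water, and 0.490 with Dex and 1.36 with water in the CD71 sort. Both DMOG libraries were above every other cultured library by a wide margin, and the groups did not overlap. The difference was 3.16 ± 0.17 (log2, SE, limma adjusted p = 0.0103, higher in 2 of 2 pairs), first of 9535 genes by p. The ratio was 13.8 (95% interval 9.31 to 22.3) with Dex present and 18.9 (95% interval 12.5 to 31.3) without, with exact Clopper-Pearson intervals of the recovered reads that cover counting error only. Of its words 17.0% also occur on the opposite strand of Lrp2bp or Ufsp2 transcripts, and the use of strand in counting is not given in the sources used here. Ufsp2 was at 18.9 and 18.2 with DMOG against 17.8 and 15.2 without it in the CD71/CD24a sort (difference 0.16, log2). Lrp2bp stayed below 0.12 in the cultured libraries. The part of these 2 genes in the Ankrd37 result was not tested.

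Narf, which encodes a nuclear protein that binds prelamin A, was at 40.1 with Dex and DMOG and 41.9 with DMOG, against 16.1 with Dex and 16.3 with water, and 13.1 with Dex and 15.1 with water in the CD71 sort. The 2 DMOG libraries lay together and well above the other 4. The difference was 1.29 ± 0.089 (log2, SE, limma adjusted p = 0.0213, higher in 2 of 2 pairs), with ratios of 2.49 with Dex and 2.57 without. Narf missed the threshold when the CD71/CD24a Dex or water library was left out.

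Of the genes for collagen hydroxylation and folding in the endoplasmic reticulum, 5 of 6 were tested and 0 passed, with differences of 0.08 to 1.21. P4ha1, the catalytic subunit of collagen prolyl 4-hydroxylase, was at 13.8 with Dex and DMOG and 12.4 with DMOG, against 5.02 with Dex and 5.15 with water, and 3.96 with Dex and 3.11 with water in the CD71 sort. Its groups did not overlap, and its difference of 1.21 ± 0.11 (log2, SE, limma adjusted p = 0.0519, 2 of 2 pairs) just missed the threshold. Plod2, a lysyl hydroxylase that acts on collagen, was at 3.61 with Dex and DMOG and 3.23 with DMOG, against 1.29 with Dex and 1.60 with water, and 0.770 with Dex and 0.812 with water in the CD71 sort. It too was highest in both DMOG libraries, with a difference of 0.86 ± 0.12 (log2, SE, limma adjusted p = 0.225). Ero1l, an oxidase that drives disulfide formation, was at 26.9 and 31.3 in the DMOG libraries against 16.6 and 22.1 in their pairs (difference 0.57, limma adjusted p = 0.397). The related Plod1 and the shared subunit P4hb differed by 0.08 and 0.15 on the log2 scale (limma adjusted p = 0.999 each). The second alpha subunit gene P4ha2, under the filter and untested, was at 1.52 with Dex and DMOG and 0.571 with DMOG, against 0.630 with Dex and 0.263 with water, and 1.23 with Dex and 0.180 with water in the CD71 sort.

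Metabolic members gave 0 calls among 6 tested, with 4 differences above 0 and 2 below. Ak4, a mitochondrial adenylate kinase, was at 17.5 with Dex and DMOG and 14.8 with DMOG, against 7.11 with Dex and 6.28 with water, and 4.25 with Dex and 4.25 with water in the CD71 sort. The DMOG libraries lay above the other 4, and the difference of 1.15 ± 0.099 (log2, SE, limma adjusted p = 0.0519, 2 of 2 pairs) ranked 3 of all genes by p. Hmox1, the heme oxygenase that breaks heme down, was at 6.53 with Dex and DMOG and 9.89 with DMOG, against 2.90 with Dex and 3.95 with water, and 2.39 with Dex and 3.60 with water in the CD71 sort. It was higher in both DMOG libraries than in any other cultured one, with a difference of 1.04 ± 0.10 (log2, SE, limma adjusted p = 0.0519, 2 of 2 pairs). Hmox1 also answers to NRF2 and BACH1. Of 11 other tested genes linked to these factors, Bach1 and Nfe2l2 among them, 0 passed for DMOG, against 0.021% of all genes. Their median difference was -0.03, and the part of these factors in the Hmox1 result was not tested.

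Pgm1, Gys1, Gbe1 and Pgm2, also metabolic members, differed among themselves. Pgm1, a phosphoglucomutase that links glucose 6-phosphate to glycogen, was at 30.6 and 26.0 with DMOG against 19.7 and 18.8 without it in the CD71/CD24a sort (difference 0.53, limma adjusted p = 0.353). Glycogen synthase Gys1 had a difference of 0.35, while the branching enzyme Gbe1 (difference -0.03) and Pgm2 (difference -0.16) lay below 0, all 3 with a limma adjusted p of 0.999. The names Pgm1 and Pgm2 follow the GRCm38.p6 annotation, in which each is also a former name of the other.

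Among mitochondrial members 4 of 4 were tested and 0 passed. Bnip3, a receptor for the removal of mitochondria by autophagy, had the second largest difference of the list. It was at 10.0 with Dex and DMOG and 9.99 with DMOG, against 3.01 with Dex and 2.65 with water, and 1.51 with Dex and 2.90 with water in the CD71 sort. The DMOG values were alike and lay more than 3-fold above both of their pairs, with ratios of 3.32 (95% interval 2.74 to 4.05) with Dex and 3.77 (95% interval 3.06 to 4.69) without. The difference of 1.52 ± 0.19 (log2, SE, limma adjusted p = 0.124, 2 of 2 pairs) did not pass, and the CD71 sort libraries, at 1.51 and 2.90, were themselves apart. Fam162a, linked to cell death under hypoxia, had a difference of 0.36. Higd1a, a respiratory chain factor, and Ndufa4l2, a complex I relative, differed by 0.08 each on the log2 scale, and Ndufa4l2 did not exceed 0.767 in any library of the CD71/CD24a sort.

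Secreted members and nuclear regulators gave 0 calls for DMOG. Vegfa, the vascular growth factor gene, was at 10.9 with Dex and DMOG and 14.5 with DMOG, against 8.23 with Dex and 8.95 with water, and 9.81 with Dex and 10.3 with water in the CD71 sort. Its DMOG values were the 2 highest of the 6, but the value with Dex and DMOG was close to that of the CD71 water library (difference 0.50, limma adjusted p = 0.62). Stc2, a secreted glycoprotein gene, had a difference of 0.41 (limma adjusted p = 0.58) and Mif one of 0.22 (limma adjusted p = 0.999). Bhlhe40, a transcriptional repressor, was at 6.60 with Dex and DMOG and 7.99 with DMOG, against 2.02 with Dex and 3.38 with water, and 3.44 with Dex and 2.40 with water in the CD71 sort. Its groups did not overlap, yet the other 4 libraries were spread and the difference of 1.19 ± 0.21 (log2, SE, limma adjusted p = 0.397, 2 of 2 pairs) did not pass. Cited2, which competes with HIF for its coactivators, differed by 0.10 and the zinc finger gene Zfp395 by 0.47 on the log2 scale. Of the untested Nfil3, a basic leucine zipper repressor, the levels were 0.497 and 1.09 with DMOG against 0.540 and 0.463 without.

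The remaining members went in both directions. Ndrg1, a stress-response gene, had a difference of 0.67 and Ccng2, an atypical cyclin of arrested cells, one of 0.67 (limma adjusted p = 0.451 and 0.457). Ccng2 was below 1 in all 4 libraries without DMOG and passed the filter through the other two. Wsb1, a ubiquitin ligase subunit, was at -0.09 on the log2 scale. Txnip, an inhibitor of thioredoxin and of glucose uptake, was the member furthest below 0, at 18.4 with Dex and DMOG against 27.5 with Dex, and 10.7 with DMOG against 14.9 with water (difference -0.50, limma adjusted p = 0.569).

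By size alone, 10 of the 9535 genes (0.105%) were at least 2-fold higher in both DMOG pairs on the log2(normalised RPKM + 1) scale, and 6 of them were members: Ankrd37, Narf, Ak4, P4ha1, Bnip3 and Bhlhe40. The other 4 were Slc2a1, Egln3, Ddit4 and Tent5c. The first 3 of these are other known HIF targets, namely a glucose transporter, the prolyl hydroxylase of the feedback loop and an mTOR inhibitor. Tent5c is a poly(A) polymerase gene. As plain ratios of the levels, without the added 1, Hmox1, Plod2, Ccng2 and the untested P4ha2 were above 2 in both pairs as well. The share of all genes above 2 by this looser rule was not counted, so these names only describe the list. P4ha2 rests on 32 reads with Dex and 13 with water in the CD71/CD24a sort. No gene was 2-fold lower in both pairs on the log2 scale.

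**Figure D3:**
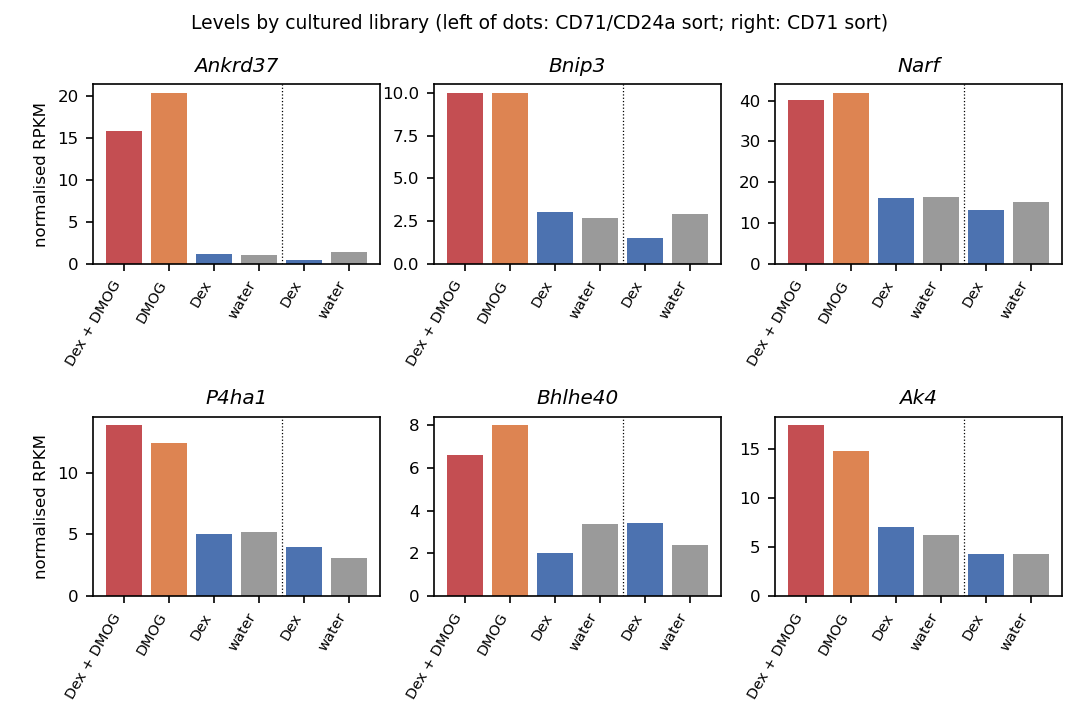
Level in each cultured library (bars, normalised RPKM) of the 6 members with the largest DMOG difference, the CD71/CD24a sort left and the CD71 sort right of the dotted line. In each panel both DMOG bars are the tallest, from 6.60 and 7.99 for Bhlhe40 to 40.1 and 41.9 for Narf.

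Other genes of the pathway gave 0 calls for DMOG, where 0.021% of all tested genes were called. All 20 glycolysis and glucose uptake targets were tested, and 19 differences were above 0 with a median of 0.49. Of 32 further HIF targets 23 were tested, with 19 above 0 and a median of 0.15. Of 10 HIF subunit and oxygen-sensing genes 8 were tested, with 5 above 0 and a median of 0.04, and Hif1a itself differed by -0.02. Of 12 ATF4 and unfolded protein genes, which several members also follow, 10 were tested with a median of 0.02.

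The second comparison asked which members answered to Dex, over 3 pairs in both sorts. Txnip, Ndrg1 and Cited2 rose with Dex, 3 of 27 members against 1.39% of all tested genes (133 of 9535), and 0 members fell against 0.629% (60 of 9535). The median member difference was 0.07 against -0.015 for all genes, and 14 of 27 were above 0 against 45.9%. At an unadjusted p under 0.05 there were 5 members higher and 4 lower, against 7.25% and 8.9% of all genes. On the log2(normalised RPKM + 1) scale of the fit, 0 members were at least 2-fold apart in all 3 pairs in either direction, against 0.346% and 0.0734% of all genes, and 11 of 27 were above 0 in all 3 against 19.5%.

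Txnip was at 24.0 with Dex against 11.0 with water in the CD71 sort, 27.5 with Dex against 14.9 with water in the CD71/CD24a sort, and 18.4 with Dex and DMOG against 10.7 with DMOG. Each Dex value lay well above its own pair, with ratios of 2.18, 1.85 and 1.72. The difference was 0.88 ± 0.086 (log2, SE, limma adjusted p = 0.00683, 3 of 3 pairs). Of its words 19.7% also occur on the opposite strand of other transcripts, among them Pask, whose Dex difference was -0.03. The part of these transcripts in the Txnip result was not tested.

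Ndrg1 was at 2.17 with Dex against 0.796 with water in the CD71 sort, 2.09 with Dex against 0.894 with water in the CD71/CD24a sort, and 4.52 with Dex and DMOG against 1.69 with DMOG. Within each pair the plain ratio of the Dex value was above 2, and the ratios, 2.73 (95% interval 1.74 to 4.29), 2.34 (95% interval 1.69 to 3.23) and 2.68 (95% interval 2.31 to 3.12), had overlapping counting intervals. The difference was 0.86 ± 0.10 (log2, SE, limma adjusted p = 0.0141, 3 of 3 pairs). Ndrg1 shares 16.5% of its words on the opposite strand with transcripts not analysed here.

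Cited2 was at 35.4 with Dex against 23.4 with water in the CD71 sort, 21.5 with Dex against 15.2 with water in the CD71/CD24a sort, and 23.8 with Dex and DMOG against 15.9 with DMOG. The sorts differed in level, but within every pair Dex was higher, by 1.51, 1.42 and 1.49 times. The difference was 0.53 ± 0.068 (log2, SE, limma adjusted p = 0.0173, 3 of 3 pairs). Cited2 missed the threshold without the CD71/CD24a Dex or water library, and all 3 members missed it with no filter on low values or with the sort term (the replicate block) left out.

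Hmox1 was the member furthest below 0 with Dex. It was at 2.39 with Dex against 3.60 with water in the CD71 sort, 2.90 with Dex against 3.95 with water in the CD71/CD24a sort, and 6.53 with Dex and DMOG against 9.89 with DMOG, lower in 3 of 3 pairs, and its difference of -0.44 ± 0.084 (log2, SE, limma adjusted p = 0.0655) did not pass. Mif (difference -0.32, limma adjusted p = 0.43) was not lower in all pairs, with a ratio of 1.21 in the CD71 sort against 0.713 and 0.588 in the CD71/CD24a sort. Ankrd37 (-0.32), Plod1 (-0.28), Ero1l (-0.23) and Zfp395 (0.31) also did not pass, with limma adjusted p of 0.33, 0.285, 0.263 and 0.155. The other 18 tested members differed by at most 0.21 in size.

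P4ha2 was too low for the test but had its higher values with Dex. Its levels were 1.23 with Dex against 0.180 with water in the CD71 sort, 0.630 with Dex against 0.263 with water in the CD71/CD24a sort, and 1.52 with Dex and DMOG against 0.571 with DMOG, ratios of 6.82 (95% interval 2.60 to 21.6), 2.39 (95% interval 1.22 to 4.96) and 2.66 (95% interval 2.00 to 3.61). All 3 counting intervals lay above 1, but they cover counting error within single libraries only and are no test of Dex. The first ratio rests on 37 reads with Dex and 5 with water. Within the CD71/CD24a sort alone 3 of 26 members were higher with Dex (background 5.48%) and 5 lower (background 7.71%), the lower ones being Bhlhe40, Ero1l, Higd1a, Hmox1 and Mif. Leaving out the CD71 Dex or the CD71 water library gave the same Dex estimates as the CD71/CD24a sort alone, and so adds no separate check.

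**Figure D4:**
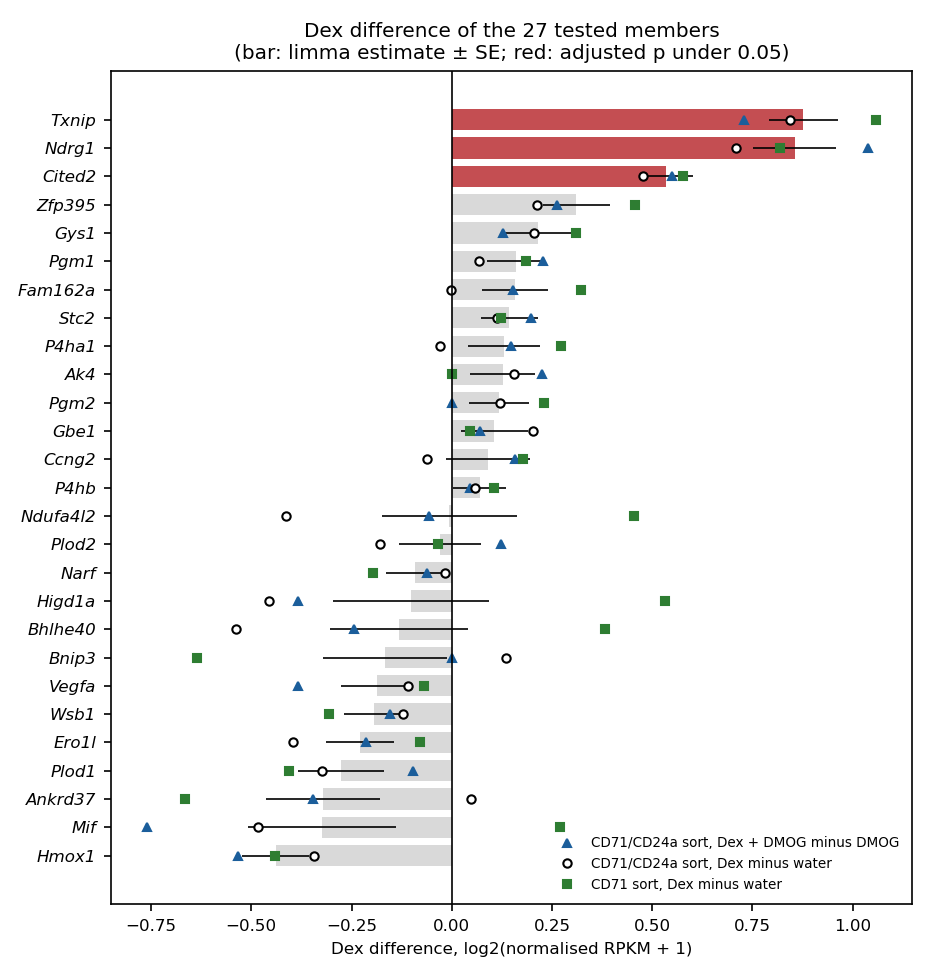
Dex difference of the 27 tested members on the log2(normalised RPKM + 1) scale (bars, limma estimate with SE; red, adjusted p under 0.05), with each of the 3 pairs as a symbol. Txnip, Ndrg1 and Cited2 lie at 0.53 to 0.88 with all 3 symbols above 0, and Hmox1 at -0.44 with all 3 below 0.

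As a check of the agent, 8 of 11 tested glucocorticoid-induced genes rose with Dex, against 1.39% of all tested genes, and the median of the 11 was 1.01. The 6 largest differences were those of Per1 (1.57), Fkbp5 (1.54), Tsc22d3 (1.31), Mt2 (1.23), Zfp36l2 (1.18) and Tgm2 (1.01), in log2. In the HIF pathway the oxygen-sensing genes Hif3a (1.43) and Egln3 (1.66), the glycolysis genes Hk1 (0.54) and Pfkfb4 (1.31), and the further target Ddit4 (1.95) rose with Dex, in log2 difference. These are 2 of 8 oxygen-sensing and 2 of 20 glycolysis genes, and 0 of either list fell. Over all tested genes 1.39% rose and 0.629% fell. Among NRF2 and BACH1 genes Fth1 rose (0.79) and Slc7a11 (-0.74) and Srxn1 (-0.60) fell, 3 of 11. Hmox1, at -0.44, did not pass, and the part of these factors in its Dex values was not tested.

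The third comparison asked whether both agents together differed from the sum of their single effects. The interaction passed for 0 of 27 members and 0 of 9535 genes (0% called), by limma with Benjamini-Hochberg adjustment. At an unadjusted p under 0.05 there were 0 members higher and 1 lower, against 1.59% and 1.29% of all genes (152 and 123). Of the members 13 of 27 were above 0, against 50.3% of all genes. The fit leaves 1 residual degree of freedom beside 11.6 prior ones, and its intervals are wide. For Narf the SE was 0.20, against 0.089 for its DMOG difference.

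Ndrg1 was at 4.52 with Dex and DMOG, 1.69 with DMOG, 2.09 with Dex and 0.894 with water, the highest value of the 4 standing with both agents. That is 5.05 times water, against 4.42 for the product of the single ratios, and the interaction was 0.28 (95% interval -0.31 to 0.86, log2). Txnip, whose Dex and DMOG differences had opposite signs, was 1.23 times water with both against a product of 1.33. Hmox1 was 1.65 times water against 1.84. The member below the unadjusted threshold was Mif, at 87.3 with both agents, 148 with DMOG, 82.5 with Dex and 116 with water (interaction -0.65, limma adjusted p = 0.999).

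The next comparisons have 1 library on each side and no test, so members at least 2-fold apart on the log2(normalised RPKM + 1) scale are named among those at 1 or more in at least 1 library. A member under 1 in one of the libraries entered through the other alone, so the counts describe the list and support nothing. Cultured BFU-E with water from the CD71 sort were set beside fresh BFU-E of the same gate. Of 26 members 4 were higher (background 6.27%) and 8 lower (background 9.06%). Bhlhe40 was at 2.40 in culture and 0.180 fresh, a ratio of 13.3 (95% interval 7.02 to 27.3). The other higher members were Ero1l (14.1 in culture and 6.07 fresh), Hmox1 (3.60 in culture and 1.23 fresh) and Mif (352 in culture and 172 fresh), and Mif was at 0.98 on the log2 scale without the scaling factor, just under 2-fold.

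Of the lower members Txnip was at 11.0 in culture and 53.8 fresh, a ratio of 0.205 (95% interval 0.184 to 0.228). Ndufa4l2 (5.55 in culture and 24.9 fresh), Zfp395 (6.61 in culture and 27.4 fresh), Ndrg1 (0.796 in culture and 3.83 fresh) and Pgm2 (26.2 in culture and 69.5 fresh) followed. Gys1 (4.11 in culture and 11.2 fresh), Ccng2 (0.329 in culture and 2.15 fresh) and Plod1 (1.29 in culture and 4.33 fresh) were the rest. Markers listed for other cells differed as well. The 9 neutrophil and mast cell markers summed to 26.5 in the cultured and 100.0 in the fresh library, though S100a9 (1.18 in culture and 0.105 fresh) went the other way. The 4 endothelial markers summed to 2.92 in culture and 11.9 fresh. The part of these markers in the result was not tested.

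Between the sorts, both with water, 0 of 25 members were 2-fold higher in the CD71/CD24a sort (background 1.44%) and 2 were lower (background 3.07%). Ndufa4l2 was at 0.767 in the CD71/CD24a sort and 5.55 in the CD71 sort, a ratio of 0.138 (95% interval 0.0707 to 0.238). Mif was at 116 in the CD71/CD24a sort and 352 in the CD71 sort, a ratio of 0.328 (95% interval 0.306 to 0.351). Both were lower in the CD71/CD24a sort with Dex as well, at 0.326 and 82.5 against 7.98 and 425 in the CD71 sort. Erythroid markers with water summed to 664 in the CD71/CD24a sort and 1748 in the CD71 sort, neutrophil and mast cell markers to 6.51 and 26.5 in the same order of sorts, and hepatocyte markers to 10.2 and 2.83. The part of these cells in the difference was not tested. The deposited values also differ in form, since only those of the CD71/CD24a sort hold exact values of 1 and no 0. The gate, its culture and this form cannot be told apart. Mif shares 56.6% of its words with other genes or pseudogenes on the same strand, so its own level is uncertain.

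Along fresh maturation, the members 2-fold apart between CFU-E and BFU-E were lower in CFU-E, and all genes leaned the same way. Of 26 members 0 were higher in CFU-E (background 3.32%, 330 of 9947) and 7 were lower (background 12.3%, 1224 of 9947). The absence of higher members is thus near the background. The median was -0.34 against -0.08 for all genes. Stc2 was at 0.452 in CFU-E and 6.89 in BFU-E, a ratio of 0.0656 (95% interval 0.0476 to 0.0891). Pgm1 was at 4.75 in CFU-E and 17.8 in BFU-E, and Gys1 at 3.93 in CFU-E and 11.2 in BFU-E, both enzymes of glycogen synthesis. Cited2 was at 6.81 in CFU-E and 20.6 in BFU-E, Txnip at 21.0 in CFU-E and 53.8 in BFU-E, Plod1 at 1.35 in CFU-E and 4.33 in BFU-E, and Ccng2 at 0.495 in CFU-E and 2.15 in BFU-E. Ndrg1 (-0.99) and Pgm2 (-0.94) lay just inside 2-fold in log2 difference. P4ha2, at 1.25 in CFU-E and 0.134 in BFU-E, was the member nearest to a higher call at 0.99, and 1.05 without the scaling factor, where 1 member was higher and 7 were lower.

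Sums of markers listed for other cells were higher in the BFU-E than in the CFU-E library. The 9 neutrophil and mast cell markers summed to 4.64 in CFU-E and 100.0 in BFU-E, with S100a8 and Mcpt4 at 0 in both. Mpo (2.09 in CFU-E and 71.5 in BFU-E) and Prtn3 (1.23 in CFU-E and 24.6 in BFU-E) made up most of the BFU-E sum. S100a9 (0.554 in CFU-E and 0.105 in BFU-E) and Ltf (0.0563 in CFU-E and 0.0186 in BFU-E) went the other way. The 5 megakaryocyte markers summed to 14.9 in CFU-E and 62.4 in BFU-E, the 4 endothelial markers to 0.301 in CFU-E and 11.9 in BFU-E, and the 5 hepatocyte markers to 8.81 in CFU-E and 23.4 in BFU-E. Itga2b, at 2.12 in CFU-E and 44.0 in BFU-E, made up most of the megakaryocyte sum of BFU-E. Ppbp (0.429 in CFU-E and 0.189 in BFU-E) went the other way. The part of these markers in the lower members was not tested.

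Ter119+ erythroblasts are the stage of hemoglobin filling, and set against CFU-E the members split. Of 25 members 5 were higher (background 22.6%) and 10 lower (background 28.8%), with a median of -0.65 against -0.21 for all genes, so the share of higher members was near the background. The scaling factor of Ter119+ cells was 0.419, and without the factors all differences shift by a median of -1.20. On that scale 3 members were 2-fold higher and 14 lower, with P4ha1, Vegfa, Fam162a and Ero1l added to the lower ones. The 3 members higher with and without the factors were Ccng2, Narf and Hmox1. Ccng2 was at 28.6 in Ter119+ cells and 0.495 in CFU-E, a ratio of 57.8 (95% interval 41.1 to 82.9). Narf was at 325 in Ter119+ cells and 41.1 in CFU-E, a ratio of 7.91 (95% interval 7.64 to 8.19), and its Ter119+ level was far above that of any DMOG library. Hmox1 was at 8.90 in Ter119+ cells and 0.490 in CFU-E, a ratio of 18.2 (95% interval 11.1 to 30.7). Ankrd37 (5.27 in Ter119+ cells and 1.71 in CFU-E) was 0.17 without the factors and Txnip (49.3 in Ter119+ cells and 21.0 in CFU-E) turned to -0.14, so neither is 2-fold on that scale.

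Metabolic members made up 5 of the 10 lower members. Pgm2 was at 4.07 in Ter119+ cells and 35.7 in CFU-E, Pgm1 at 0.408 in Ter119+ cells and 4.75 in CFU-E, and Gys1 at 0.887 in Ter119+ cells and 3.93 in CFU-E. Gbe1 was at 0.0956 in Ter119+ cells and 1.21 in CFU-E, and Ak4 at 0.134 in Ter119+ cells and 2.46 in CFU-E. In Ter119+ cells Gbe1 rests on 2 reads, Ak4 on 4 and Pgm1 on 7, so these levels are near the floor. The counting intervals of their ratios were 0.00905 to 0.282 for Gbe1, 0.0144 to 0.138 for Ak4 and 0.0339 to 0.178 for Pgm1. Both Pgm1 and Gys1 were lower at each of the 2 steps, which share the CFU-E library. The rest were Mif (20.1 in Ter119+ cells and 233 in CFU-E), Zfp395 (2.67 in Ter119+ cells and 16.8 in CFU-E), Ndufa4l2 (8.06 in Ter119+ cells and 28.5 in CFU-E), P4hb (55.3 in Ter119+ cells and 139.9 in CFU-E) and P4ha2 (0 in Ter119+ cells and 1.25 in CFU-E). The 0 of P4ha2 allows up to 0.182 (3 reads). All 10 were also lower without the factors, while Bnip3, Cited2, Higd1a and Wsb1, none of them 2-fold, changed sign with the factors. The Ter119+ library held more macrophage marker RNA, 40.3 against 1.53 in CFU-E, and more neutrophil and mast cell marker RNA, 193 against 4.64 in CFU-E, and their part was not tested.

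**Figure D5:**
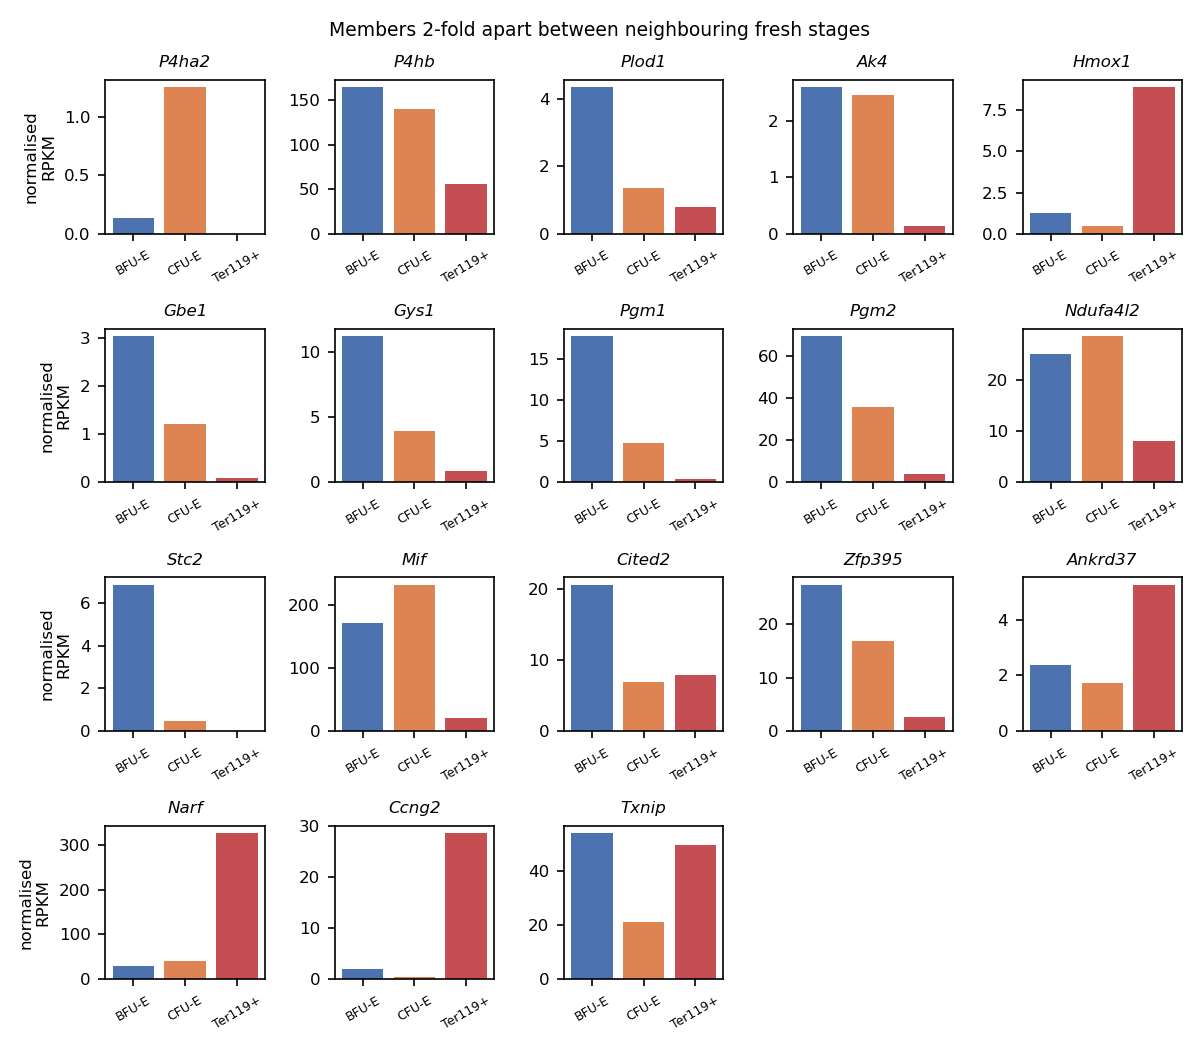
Level (normalised RPKM, each panel on its own scale from 0) of the 18 members that were 2-fold apart between neighbouring fresh stages, in BFU-E, CFU-E and Ter119+ cells. Stc2, Pgm1 and Gys1 step down from the first bar on, Narf, Ccng2 and Hmox1 are tallest in Ter119+ cells, and each bar is a single library.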

How the data were processed

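Per the submitters' processing notes the build was mm9, and the authors deposited RPKM for 23041 RefSeq records in each library. How reads were aligned and counted, and whether strand was used, is not given in the sources used here. In the CD71/CD24a files, which hold 5954 to 7412 values of exactly 1 and no 0, an exact 1 was read as 0. RefSeq gave the symbols of 22397 records and GENCODE those of 114, and 530 had none. The factor of a library is its median ratio to the geometric mean, over the 6888 genes that reach 1 RPKM everywhere. Low values came out as whole reads (within 0.1, up to 10 reads) in 66.9% to 69.9% of cases, against 20% by chance, which gave depths and 95% Clopper-Pearson intervals of counting error.

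limma 3.58.1 (R 4.3.3, with a mean-variance trend) was fitted to log2(normalised RPKM + 1), a scale that understates changes of low genes, in the 6 cultured libraries. Terms were sort, Dex and DMOG (2 residual and 4.31 prior degrees of freedom), or these and the Dex-by-DMOG interaction (1 residual and 11.6 prior). The pairing by sort comes from the protocol, and the labels number no replicates. Genes with a mean of at least 1 were tested, and an adjusted p under 0.05 was a call. All other comparisons used a 2-fold rule without a test. Shared sequence was counted in 32-base words. Values in every library are given for called members and for the 6 largest differences among the rest, for members at 2-fold where there was no test, and at most the 6 largest called genes of each other list are named, apart from a further HIF target that is not reported here. Genes 2-fold in both DMOG pairs were named after their values were seen. The members and lists were chosen with earlier results of these data known.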

Additional observations from a re-analysis of the deposited data

How the results depend on the processing

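The number of members called higher with DMOG, 2, became 0 with a pseudocount of 0.1, with no filter on low values and with no replicate block (the sort term left out). It became 4 with at least 1 normalised RPKM in each library, where Ankrd37 was not tested, and 4 with records summed, which adds near-identical records of a gene together. Over all genes the 2 higher calls became 0, 0 and 0 in the first 3 of these settings, 6 with the stricter filter and 5 with records summed. In settings added after the data were seen, the CD71/CD24a sort alone gave 16 members higher and 1 lower, and 94 and 45 genes in all, and the 2-fold rule gave 6 members and 10 genes. Leaving out 1 library gave 1 to 16 members higher and 0 to 1 lower, and 1 to 94 and 0 to 45 genes in all. For Dex the 3 members higher became 0 with no filter, with no replicate block and by the added 2-fold rule, and 2 to 3 with 1 library left out. The 0 lower became 5 in the CD71/CD24a sort alone and 0 to 5 with 1 library left out. Over all genes the 133 higher and 60 lower Dex calls became 18 and 3 with no filter, 3 and 0 with no replicate block, 521 and 733 in the CD71/CD24a sort alone and 33 and 7 by the 2-fold rule, and ranged over 103 to 525 and 29 to 728 with 1 library left out. The interaction gave 1 lower gene with the stricter filter, and it could not be fitted with a library left out, since no residual degree of freedom remains. In CFU-E over BFU-E 1 member was higher with a pseudocount of 0.1, without the factors or with records summed, and in Ter119+ over CFU-E 3 were higher and 14 lower without the factors. The motif share for ACGTG alone was 51.9%. Of the single members' DMOG results under alternatives 318 kept their side of the threshold, 58 passed it newly, 8 lost it and 12 changed sign, and for Dex these were 358, 15, 8 and 15. The sign changes were of results not called under either setting. With no replicate block the DMOG differences (log2) of Cited2, Gbe1, Mif, Ndufa4l2 and Wsb1 were -0.22, 0.25, -0.77, -1.08 and 0.19. With 1 library left out the DMOG differences ranged over -0.099 to 0.045 for Gbe1, -0.19 to 0.34 for Higd1a, -0.11 to 0.55 for Mif, -0.22 to 0.39 for Ndufa4l2 and -0.059 to 0.21 for Plod1. The Dex differences ranged over -0.39 to 0.070 for Bhlhe40, -0.32 to 0.068 for Bnip3, -0.42 to 0.074 for Higd1a, -0.24 to 0.20 for Ndufa4l2 and -0.11 to 0.045 for Plod2, and in the CD71/CD24a sort alone Bnip3 was at 0.068. The settings with fewer libraries have 1 residual and 8.36 to 12.6 prior degrees of freedom, and the cause of their changes was not tested. Without a CD71 library the estimates are those of the CD71/CD24a sort alone. Adm, Rora, Fam13a and Tmem45a stayed under a level of 1 in every library and entered no count of calls.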
